A study of Mus musculus with 28 samples.

Results

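The tail of a spermatozoon is built around a microtubule axoneme, to which accessory structures are added as the spermatid elongates. The fibrous sheath surrounds the axoneme of the principal piece and serves as a scaffold for protein kinase A and for glycolytic enzymes. The outer dense fibres run beside the microtubule doublets and stiffen the tail, and the mitochondrial sheath winds mitochondria around the midpiece. In the testis many transcripts of these structures are made in round spermatids, stored, and translated later, after transcription has ceased.

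The genes described here are 10 of the 18193 genes with a probe set on the array. They were chosen by symbol: Akap3, Akap4, Ropn1 and Ropn1l of the fibrous sheath, Odf1 and Odf2 of the outer dense fibres, and Smcp, Akap1, Spata18 and Cabs1. This choice, and that of the related lists below, was made with earlier results of these data known. Their counts, set beside the share of all genes, are therefore not those of a blind choice. Smcp, Akap1 and Spata18 encode proteins tied to mitochondria, and Cabs1 encodes a calcium-binding protein of spermatids. Together they had 21 of the 45101 probe sets. All 10 genes lay above the filter on dim genes in each comparison.

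Testicular RNA of adult C57BL/6 males was hybridised to 28 one-colour arrays. Wild-type (WT) mice were compared with mice null for GRTH (GRTH null, knockout, KO), the gonadotropin-regulated testicular RNA helicase encoded by Ddx25, and the series title asks which polysomal transcripts it regulates. The 10 groups were 4 arrays of spermatocytes from each genotype, 3 of round spermatids, 2 of Leydig cells and 3 of total testicular polysomes from each, and polysome RNA of WT mice recovered with GRTH antibody (GRTH IP, 2 arrays) or with IgG (IgG IP, 2 arrays). Cells were enriched by centrifugal elutriation and polysomes by sucrose gradient. Nothing in the labels states that replicates were separate animals, so the p-values cover the spread between arrays alone, part of which may be technical.

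All values are signals after scaling every array to a trimmed mean of 500. Log2 changes were taken on log2(signal + 16), which understates changes of dim genes, and are given ± SE. Adjusted p-values are those of limma with Benjamini-Hochberg adjustment over the 9097 genes tested in each comparison, and a gene is said to have risen or fallen only below 0.05. Each gene is read from its brightest probe set, and means are ± SD. A probe set's brightness depends on its probes, so levels are compared between groups and not between genes.

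Several features of the arrays touch the results. The targeted gene, Ddx25, fell in KO in every preparation, from -4.35 ± 0.27 in polysome RNA to -1.97 ± 0.10 in round spermatids. The labelled fractions held RNA of other cells. The summed signal of 7 Leydig cell markers was 33338 to 33408 in the WT Leydig fraction and 1037 to 1056 in WT round spermatids. However, 10 elongating spermatid markers summed to 144117 to 145548 in that Leydig fraction and to 96661 to 121010.0 in WT spermatocytes. The Leydig groups are therefore called Leydig cell fractions below. In the descriptions, 4 arrays carry the name of a group that differs from the one in the title (polysome arrays 1 and 2 of WT and 1 of KO, and array 1 of the IgG IP), and the titles were followed. The 4 polysome arrays numbered 1 and 2 had been deposited unscaled, with trimmed means of 29.8 to 168, against 500 on the other arrays. Within each genotype, spermatocyte arrays 1 and 2, spermatocyte arrays 3 and 4, and round spermatid arrays 1 and 2 formed close pairs.

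Among the 8 groups outside the IP the mean of each of the 10 genes was highest in WT round spermatids, although for Akap3, Odf1, Ropn1, Ropn1l and Smcp those arrays overlapped with WT polysome arrays. Each rose from spermatocytes to round spermatids, by 1.53-fold (Ropn1l) to 6.53-fold (Cabs1), where 36.2% of all genes tested rose. The median log2 change of the 10 genes was 1.52, against -0.24 over all genes tested. Cabs1, Akap1 and Spata18 had log2 changes of 2.71, 2.69 and 2.57, Akap4 and Ropn1 of 1.98 and 1.72, and Akap3, Odf1, Smcp and Odf2 of 1.21 to 1.33. The elongating spermatid markers summed to 96661 to 121010.0 in WT spermatocytes and to 257306 to 349751 in WT round spermatids, and round spermatid markers to 40016 to 41799 and 117081 to 142302. Their part in the rises was not tested.

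Akap1 encodes an anchor that holds protein kinase A at the outer mitochondrial membrane. Its signal was 2859.8, 2919, 3296 and 3304 on the WT spermatocyte arrays and 21071, 19309.6 and 19799 on the WT round spermatid arrays, a log2 rise of 2.69 ± 0.07 (adjusted p = 4.66e-09). Cabs1 went from 4001, 3933, 3804 and 3825 to 29494, 26816 and 20928, a rise of 2.71 ± 0.11 (adjusted p = 2.62e-08). In both genes the lowest round spermatid array lay more than 5-fold above the highest spermatocyte array.

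Akap4, the most abundant protein of the fibrous sheath and a kinase anchor itself, read 9229, 8696, 8411 and 8169 in WT spermatocytes and 40560.1, 36195 and 27069 in WT round spermatids (1.98 ± 0.13, adjusted p = 5.36e-07). Odf1, a cysteine-rich protein of the outer dense fibres, read 13909.8, 12520.0, 13006 and 11939 in spermatocytes and 36900.3, 33053 and 26811 in round spermatids (1.32 ± 0.11, adjusted p = 3.08e-06). The groups of both genes did not overlap, and round spermatid array 3 was the lowest of its 3 for each. On the WT round spermatid arrays the 10 genes reached 42.2% to 88.5% of the array's highest signal, close to the top of the scale, and whether this compressed the rises was not tested.

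In KO testis the rise was kept in direction for all 10 genes (38.8% of all genes rose). It ranged from 0.39 ± 0.11 (adjusted p = 0.0102) for Ropn1l to 2.43 ± 0.05 (adjusted p = 4.11e-09) for Akap1, with a median of 1.72 against -0.10 over all genes. Under quantile normalization Ropn1l lost its rise in both genotypes (-0.07 in WT, adjusted p = 0.0904, and 0.05 in KO, adjusted p = 0.221). By its other probe set, 1457627_x_at, the WT rise did not pass in a fit of all probe sets (0.27 ± 0.18, adjusted p = 0.247). The KO rise of that probe set did (0.32 ± 0.08, adjusted p = 0.012).

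**Figure D1:**
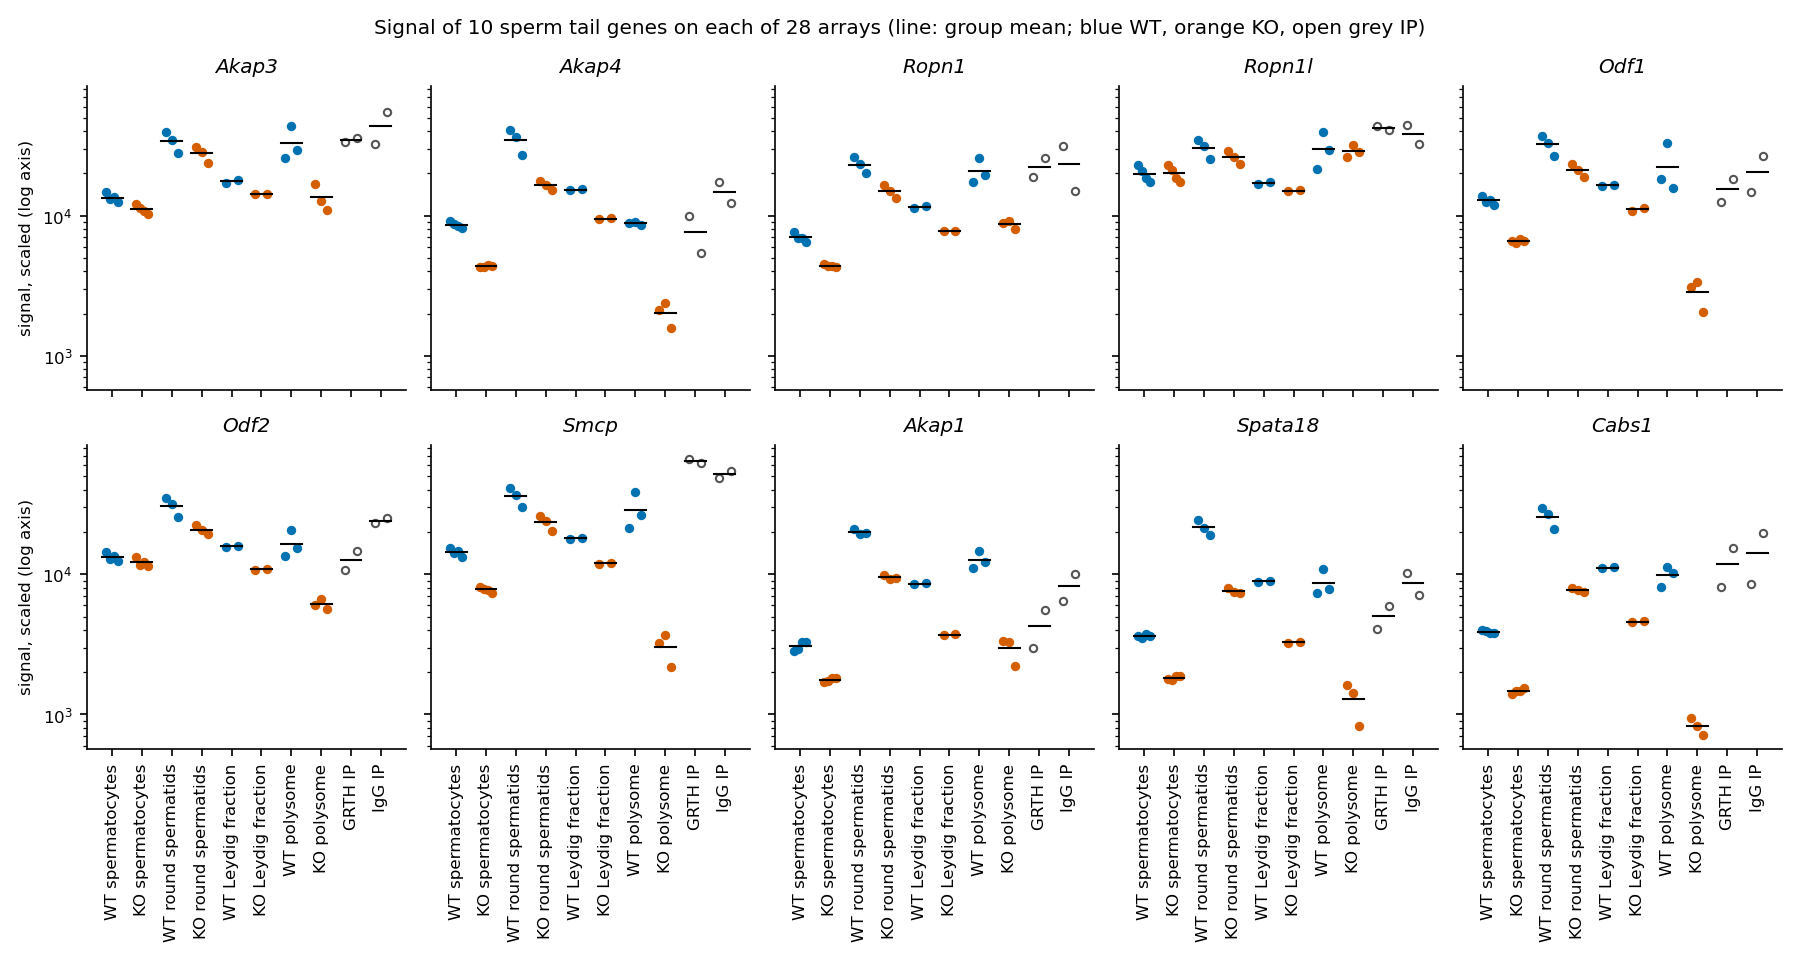
Each panel plots 1 gene, with the scaled signal on a log axis for every array (points) of the 10 groups and the group mean (line), WT in blue, KO in orange and the IP groups in open grey. KO polysome arrays lie below WT polysome arrays for 9 genes, by the widest margin for Cabs1 (710 to 938 against 8055 to 11249.7), while Ropn1l overlaps.

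In KO total polysome RNA 9 of the 10 genes fell, and the group means ranged from 8.39% of WT (Cabs1) to 95.8% (Ropn1l), with a median of 23.2%. Of all genes tested, 5.77% were called lower and 0.572% higher. These shares moved with the fit. With a replicate block (arrays paired by number) 11.8% were lower and 12.9% higher. In a fit over all 10 groups the shares were 9.78% and 4.20%, and 9 of the 10 genes fell in both fits. The median log2 change of the 10 genes was -2.12, against 0.13 over all genes. With arrays centred on their medians these were -2.28 and -0.04, and 9 genes again fell. In bulk RNA such as this, fewer cells of a type and less RNA per cell cannot be told apart.

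Cabs1 and Smcp had the lowest changes of the 10. Cabs1 read 8055, 11249.7 and 10169.6 on the WT arrays and 938, 825 and 710.3 on the KO arrays, or 9825 ± 1625 in WT and 824 ± 114 in KO (n = 3 each). Its log2 change was -3.54 ± 0.22 (adjusted p = 0.00017), or 11.7-fold lower. Smcp, a cysteine-rich protein of the sperm mitochondrial capsule whose messenger is a textbook case of delayed translation, read 21461, 38366 and 26468 in WT and 3248, 3699 and 2197 in KO. It fell by 9.34-fold (-3.22 ± 0.29, adjusted p = 0.000413). Every KO array of these genes lay below every WT array by more than 5-fold, and among 9097 genes they ranked 7 and 18 from the lowest change.

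Spata18, known for its part in mitochondrial quality control, read 7325, 10961 and 7804 in WT and 1625, 1414 and 831 in KO (-2.77 ± 0.29, adjusted p = 0.000584). Akap1 read 11023, 14778 and 12159 in WT and 3369.6, 3296 and 2218 in KO (-2.10 ± 0.24, adjusted p = 0.000832). KO array 3 was the lowest for both, and neither pair of groups overlapped. This Akap1 fall was not shared by its dim second probe set, described further on.

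Both outer dense fibre genes fell by their brightest probe sets, while other probe sets of Odf2 differed, as described further on. Odf1 read 18384, 32848 and 15714 in WT and 3116, 3382 and 2044 in KO, a 7.57-fold fall (-2.92 ± 0.32, adjusted p = 0.000711), and WT array 2 stood above the other WT arrays. Odf2, a coiled-coil scaffold of the dense fibres that is also part of centrosomes, read 13414, 20827 and 15337 in WT and 6042, 6633 and 5673 in KO (-1.41 ± 0.23, adjusted p = 0.00516). The groups did not overlap for either gene. Odf2 lost its call without the 3 arrays of conflicting description (-1.32, adjusted p = 0.112) and with the mean of its probe sets (-0.60, adjusted p = 0.144).

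The fibrous sheath genes differed among themselves. Akap4 gave close values on the WT arrays, with 8842, 9004 and 8531 in WT and 2123, 2381 and 1574 in KO, a 4.38-fold fall (-2.13 ± 0.22, adjusted p = 0.000576). Akap3, the second anchor of the sheath, read 25564, 43771 and 29344 in WT and 16811, 12736 and 10906 in KO (-1.27 ± 0.27, adjusted p = 0.0217). Ropn1, a ropporin that docks onto the kinase anchors, read 17346, 25577 and 19455 in WT and 8811, 9129.9 and 7989 in KO (-1.25 ± 0.22, adjusted p = 0.00822). These 3 genes had no KO array as high as any WT array.

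Ropn1l, the ropporin-like partner of Akap3, was the exception by its brightest probe set. Its polysome signals were 21338, 39482 and 29437 in WT and 26210.3, 31934 and 28313 in KO, and the change was -0.02 ± 0.26 (adjusted p = 0.974). The groups overlapped, and the lowest and the highest of the 6 arrays were both WT. The sign of this change turned under several settings, among them quantile normalization (0.08, adjusted p = 0.885). The other Ropn1l probe set, 1457627_x_at, gave -0.64 ± 0.34 (adjusted p = 0.569) in a fit of all probe sets. Its groups overlapped too, and its KO mean was 64.1% of WT. The value near 0 for Ropn1l therefore rests on the brightest probe set alone.

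The falls had the same direction in both sets of polysome arrays. Over arrays 1 and 2, deposited unscaled, the KO minus WT difference of the 10 genes ran from -3.41 to -0.00, with a median of -1.96. On the scaled pair, array 3, it ran from -3.81 to -0.06, with a median of -2.44. Akap3 lost its call without KO array 2 (-1.24, adjusted p = 0.0775) or KO array 3 (-1.13, adjusted p = 0.0887). Without the 3 arrays of conflicting description 6 of 10 passed (2.78% of all genes lower), since Akap3 (-1.31, adjusted p = 0.114) and Ropn1 (-1.19, adjusted p = 0.145) were lost with Odf2. With the unscaled columns left as deposited 0 of 10 passed, as did 0 of all 9097 genes. In a fit of all 34945 probe sets, where 0.833% were lower, the probe sets standing for 6 of the 10 genes passed, and those for Akap3 (adjusted p = 0.165), Ropn1 (adjusted p = 0.097) and Odf2 (adjusted p = 0.0686) did not.

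Other spermatid RNA moved with these genes. The 10 elongating spermatid markers, none of them among the 10 genes, summed to 177217 to 377077 on WT polysome arrays and to 24224 to 48596 on KO arrays. Round spermatid markers (9 of 10 on the array) summed to 53500.0 to 70445 in WT and 37706 to 44034 in KO. The 7 Leydig cell markers went the other way, with 23408 to 43689.5 in WT and 43208 to 70479 in KO, as did 9 Sertoli cell markers, with 37374 to 65751 and 54843 to 90840.2. Spermatocyte markers (10 of 10 on the array) summed to 34850 to 42624 in WT and 40583 to 50855 in KO. Their part in the falls was not tested. The 3' to 5' ratio of actin, a sign of RNA integrity, was 1.64 to 1.82 in WT and 1.57 to 2.09 in KO.

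**Figure D2:**
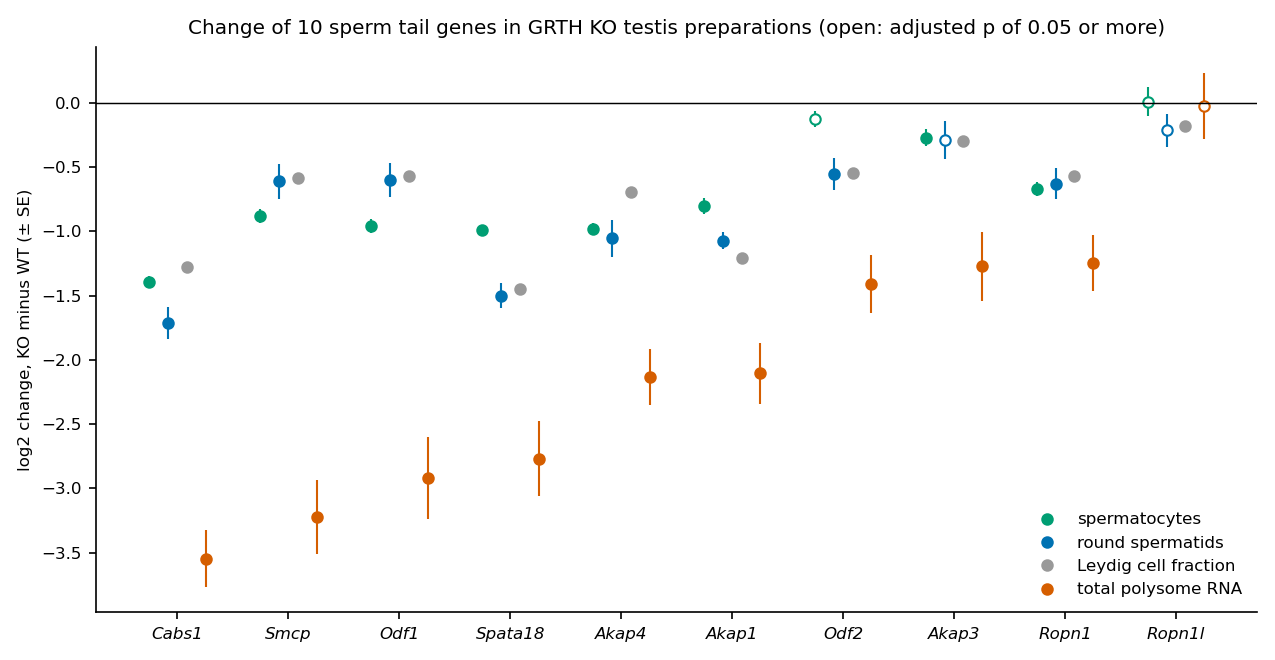
The log2 change from WT to KO (points, ± SE) is plotted for the 10 genes in 4 preparations, and open points mark adjusted p of 0.05 or more. Polysome changes (orange) lie lowest for 9 genes, from -1.25 for Ropn1 to -3.54 for Cabs1, and the 4 points of Ropn1l lie between -0.21 and 0.01.

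In KO spermatocytes 8 of 10 genes fell, where 17.8% of all genes tested were lower. Their median log2 change was -0.84, against 0.03 over all genes, and the group means had a median of 55.6% of WT. Cabs1 again led, with 4001, 3933, 3804 and 3825 in WT and 1404, 1466, 1471 and 1546 in KO (-1.39 ± 0.04, adjusted p = 1.29e-07). Spata18 read 3658, 3530.2, 3738 and 3608 in WT and 1778, 1767, 1866 and 1878 in KO (-0.99 ± 0.04, adjusted p = 4.54e-07). For both genes the 4 KO arrays lay close together and well below the 4 WT arrays.

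Akap4 read 9229, 8696, 8411 and 8169 in WT and 4273, 4282, 4461 and 4399.9 in KO spermatocytes (-0.98 ± 0.05, adjusted p = 8.35e-07). Odf1 (-0.96 ± 0.05, adjusted p = 1.76e-06), Smcp (-0.88 ± 0.06, adjusted p = 4.3e-06) and Akap1 (-0.80 ± 0.06, adjusted p = 1.16e-05) fell to a similar degree, and Ropn1 somewhat less (-0.67 ± 0.05, adjusted p = 1.61e-05). None of these 5 genes had overlapping groups. Akap3 fell (-0.27 ± 0.07, adjusted p = 0.0106) by its brightest probe set and lost that call with close arrays averaged (adjusted p = 0.112), while its other probe set, 1421531_at, gave -0.58 ± 0.06 (adjusted p = 0.00138).

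Odf2 and Ropn1l did not pass in spermatocytes. Odf2 read 14389.7, 12799, 13436 and 12362 in WT and 13221, 11631, 12290.5 and 11442 in KO (-0.12 ± 0.06, adjusted p = 0.158), with overlapping groups. With a replicate block (arrays paired by number) it passed (-0.12, adjusted p = 0.0111), which made 9 of 10 (22% of all genes lower). Ropn1l read 23155, 20823, 18474 and 17283 in WT and 23158, 21239, 18476 and 17328 in KO (0.01 ± 0.11, adjusted p = 0.963), and each KO array lay near the WT array of the same number. The elongating spermatid markers in this fraction summed to 96661 to 121010.0 in WT and 56998 to 63911 in KO, round spermatid markers to 40016 to 41799 and 31321 to 32680.4, and 5 smooth muscle and peritubular markers to 2240.2 to 2447 and 1407 to 1663. Leydig cell markers went the other way (6727 to 7296 and 9082 to 9995), as did Sertoli cell markers (1657 to 1743 and 1888 to 2205). Their part in the falls was not tested.

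In KO round spermatids 8 of 10 genes fell. Of all genes tested 22.4% were lower and 41% higher, with a median of 0.15, against -0.62 for the 10 genes. Cabs1 read 29494, 26816 and 20928 in WT and 8045, 7745 and 7502 in KO, or 30.2% of WT (-1.71 ± 0.12, adjusted p = 3.57e-05). Spata18 read 24402, 21399 and 19236 in WT and 7956, 7539 and 7353 in KO (-1.50 ± 0.10, adjusted p = 2.16e-05). Their WT arrays spread widely, and the KO arrays stayed together far below them.

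Akap1 (21071, 19309.6 and 19799 in WT, 9887, 9262 and 9450.4 in KO) fell by 2.1-fold (-1.07 ± 0.07, adjusted p = 2.05e-05). Akap4 (40560.1, 36195 and 27069 in WT, 17627, 16421 and 15292 in KO) fell by 2.08-fold (-1.05 ± 0.15, adjusted p = 0.000606). Akap3, the other anchor of the sheath, read 39412, 34754 and 28164 in WT and 31106, 28525 and 23762 in KO, with overlapping groups (-0.29 ± 0.15, adjusted p = 0.117). The difference between Akap4 and Akap3 was not tested.

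Smaller falls were seen for Ropn1 (-0.63 ± 0.12, adjusted p = 0.00289), Smcp (-0.61 ± 0.13, adjusted p = 0.0052), Odf1 (-0.60 ± 0.13, adjusted p = 0.00515) and Odf2 (-0.55 ± 0.12, adjusted p = 0.0053). For Odf1 the size depended on the probe set, with -1.83 by 1440821_x_at and -1.08 by 1457659_x_at. Smcp, for example, read 41006, 36866 and 30076 in WT and 25881, 23984 and 20504 in KO. Ropn1l read 34880.1, 31246 and 25552 in WT and 29119, 26030.3 and 23535 in KO, with overlapping groups (-0.21 ± 0.13, adjusted p = 0.184). With a replicate block (arrays paired by number) Akap3 (-0.29, adjusted p = 0.00739) and Ropn1l (-0.21, adjusted p = 0.0271) also passed, making 10 of 10 (24.3% of all genes lower). Quantile normalization gave 8 of 10 lower but moved their median to -0.29, against 0.05 over all genes, and turned the signs of Akap3 (0.03, adjusted p = 0.575) and Ropn1l (0.13, adjusted p = 0.0573).

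Markers moved here too. Elongating spermatid markers summed to 257306 to 349751 in WT and 158571 to 202804 in KO round spermatids. Round spermatid markers summed to 117081 to 142302 and 90745 to 99518, and spermatocyte markers to 16021 to 17353 and 24886 to 25979.7. Smooth muscle and peritubular markers were lower in KO (11438 to 13103 and 5945 to 5987). So were Sertoli cell (2262 to 2503 and 1427 to 1506) and macrophage markers (1929 to 2001 and 1784 to 1824). Leydig cell (1037 to 1056 and 1403 to 1642) and spermatogonia markers (3878 to 4275 and 6101 to 6528) were higher. Their part in the falls was not tested. Within close arrays the direction held: over arrays 1 and 2 the differences of the 10 genes ran from -1.83 to -0.26, and on array 3 from -1.48 to -0.12.

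The Leydig cell fraction, which held germ cell RNA as described above, gave 10 of 10 genes lower, where 39.3% of all genes tested were lower. With 2 arrays a group that differed little from each other, small changes passed as well. Spata18 (8882 and 8959.6 in WT, 3243 and 3283 in KO) and Cabs1 (11015 and 11270.5 in WT, 4559 and 4609 in KO) fell to 36.6% and 41.1% of WT. Their log2 changes were -1.45 ± 0.02 (adjusted p = 2.38e-05) and -1.28 ± 0.02 (adjusted p = 2.5e-05), and Ropn1l had the smallest (-0.18 ± 0.02, adjusted p = 0.00285). A fit over all 10 groups kept 3 of the 10, Cabs1, Spata18 and Akap1, where 3.43% of all genes were lower. Elongating spermatid markers summed to 144117 to 145548 in WT and 96367 to 97947 in KO, and Leydig cell markers to 33338 to 33408 and 62429 to 63341. Sertoli cell (8649 to 8885 and 15607 to 16041), macrophage (2818 to 2894 and 6747 to 6774) and spermatogonia markers (2723 to 2796 and 3801 to 3838) were higher in KO. Round spermatid (63916 to 64483 and 51059 to 51411) and smooth muscle and peritubular markers (5976 to 5983 and 3244.7 to 3245.5) were lower. Spermatocyte markers overlapped (37355 to 38008 and 37002.5 to 37408). Their part in the falls was not tested.

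The KO change differed between preparations for some genes, by the test of the difference itself. From round spermatids to polysome RNA the KO change of 5 genes was lower, where 2.25% of all genes were. These were Smcp (-2.61 ± 0.33, adjusted p = 0.00318), Odf1 (-2.32 ± 0.37, adjusted p = 0.0089), Cabs1 (-1.83 ± 0.24, adjusted p = 0.0037), Akap4 (-1.07 ± 0.26, adjusted p = 0.0452) and Akap1 (-1.03 ± 0.24, adjusted p = 0.045). Ddx25, the targeted gene, gave a difference of similar size to those of Smcp and Odf1 (-2.37 ± 0.29, adjusted p = 0.00318). Smcp kept 65.2% of its WT signal in KO round spermatids and 10.6% in KO polysome RNA, and Odf1 65.6% and 12.8% by its brightest probe set. By dimmer probe sets Odf1 kept 27.6% and 6.07% (1440821_x_at) and 48.0% and 14.2% (1457659_x_at). Whether signals near the top of the scale compressed the round spermatid changes was not tested. Polysome RNA came from total testis and round spermatid RNA from an enriched cell fraction. Differences in cell content, in preparation and in polysome loading therefore cannot be told apart in this contrast.

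That count moved with the settings. The replicate block gave 9 of 10, all but Ropn1l, and 11.4% of all genes lower. With close round spermatid arrays averaged 0 of 10 and 5 of 9097 genes passed, and adjusted p was 0.0687 for Smcp and Cabs1 and 0.0862 for Odf1. Without any single round spermatid array, or without KO polysome array 3, 3 genes passed (Smcp, Odf1 and Cabs1). In the fit of all probe sets only Smcp and Cabs1 of the 10 genes passed (adjusted p = 0.0468 each). Odf1 1422585_at was at adjusted p = 0.0678, 1440821_x_at gave -2.18 (adjusted p = 0.124) and 1457659_x_at -1.70 (adjusted p = 0.238). The Akap4 probe sets were at adjusted p = 0.136 to 0.221. Akap1 1418279_a_at was at adjusted p = 0.211, and 1449019_at gave 0.18 ± 0.26 (adjusted p = 0.841).

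From spermatocytes to round spermatids the KO change went further down for 3 genes (13.7% of all genes) and was smaller for 1 (32.3% of all genes). Spata18 (-0.51 ± 0.10, adjusted p = 0.000874), Odf2 (-0.43 ± 0.14, adjusted p = 0.0197) and Akap1 (-0.27 ± 0.09, adjusted p = 0.0255) were the 3, and Odf1 the other (0.36 ± 0.14, adjusted p = 0.0451). Odf2 kept 91.7% of its WT signal in spermatocytes and 67.7% in round spermatids. The replicate block gave 5 lower and 2 higher (17.9% and 38.5% of all genes). None of the 10 passed with close arrays averaged (5.69% and 13.4%) or in a fit over all 10 groups (0.901% and 1.42%). Under quantile normalization 0 were lower and 7 higher (18.5% and 27.1%), so these differences depended on the scaling. No gene was higher in 11 of the 14 fits that left out 1 array. The other Odf1 probe sets gave -0.40 (1440821_x_at, adjusted p = 0.303) and 0.08 (1457659_x_at, adjusted p = 0.856) in the fit of all probe sets, where 1422585_at was at adjusted p = 0.135. For Akap1 in that fit 1449019_at gave -0.004 ± 0.13 (adjusted p = 0.989), and 1418279_a_at was at adjusted p = 0.111.

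**Figure D3:**
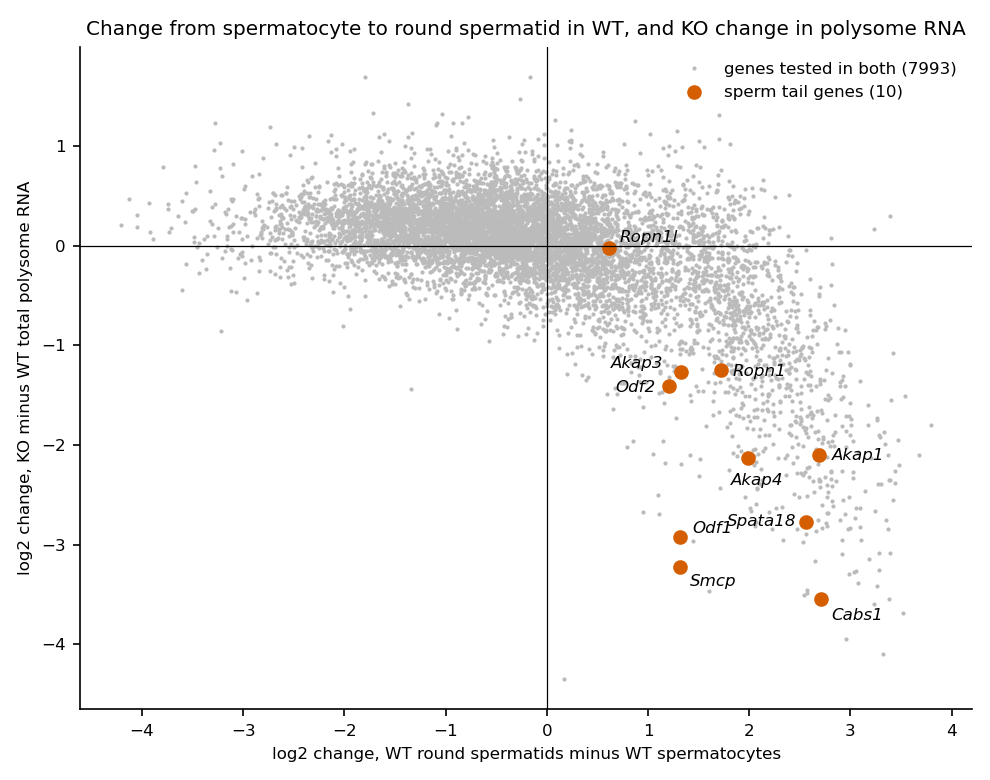
Each point is a gene, with its log2 change from WT spermatocytes to WT round spermatids on the x axis and its KO minus WT change in polysome RNA on the y axis, for 7993 genes (grey) and the 10 genes described (orange). Of the 10 genes, 9 lie to the right and low, down to Cabs1 at -3.54, while Ropn1l lies near 0, and Odf1 and Smcp lie below Akap3. The point at -4.35 near the vertical line is Ddx25.

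Genes that rose more towards the round spermatid in WT tended to fall more in KO polysome RNA. Across the 10 genes Pearson's r between the 2 changes was -0.60, and across 7993 genes tested in both it was -0.59. By their brightest probe sets Odf1, Smcp and Akap3 rose by 1.32, 1.31 and 1.33, and their KO polysome changes were -2.92, -3.22 and -1.27. The rises were larger by other probe sets, at 2.56 for Odf1 1440821_x_at and 2.07 for Akap3 1421531_at. The KO changes in round spermatids and in polysome RNA had r of 0.70 over the 10 genes and 0.70 over 7813 genes. These values describe genes within 1 set of arrays, and genes are not independent replicates.

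Across the 8 group means outside the IP, the 10 genes differed in pattern. For Odf1 and Smcp r was 0.997, and for Cabs1 and Spata18 0.987, while Ropn1l and Akap4 had 0.02. From the highest mean down, Akap4 ran from WT round spermatids (34608 ± 6884, n = 3) to KO round spermatids (16447 ± 1167, n = 3), the WT Leydig cell fraction (15329 ± 122, n = 2), the KO Leydig cell fraction (9478 ± 92.6, n = 2), WT polysome (8792 ± 240.3, n = 3), WT spermatocytes (8626 ± 456, n = 4), KO spermatocytes (4354 ± 91.5, n = 4) and KO polysome (2026 ± 412, n = 3). KO round spermatids overlapped with the WT Leydig cell fraction, and WT polysome with WT spermatocytes. Smcp ran from WT round spermatids (35983 ± 5519, n = 3) and WT polysome (28765 ± 8684, n = 3) through KO round spermatids (23457 ± 2727, n = 3) to KO spermatocytes (7798 ± 309.8, n = 4) and KO polysome (3048 ± 770.3, n = 3) at the end. Its WT polysome group overlapped with WT and with KO round spermatids, and KO round spermatids did not overlap with the group that followed.

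Outside the 10 genes, those of highest r with Akap4 among 9097 genes were Iqcf3 (0.996), Nt5c1b, Fbxo44, Smkr-ps and 2610318N02Rik (0.994). Those for Odf1 were Gm9999 (0.988), Dbil5, Gsg1, Oaz3 and 1700009N14Rik (0.978). Smcp was most like Dbil5 (0.992), Tnp1, which encodes a transition protein of spermatid chromatin, Oaz3, Gsg1 and Gm9999 (0.976). Odf1 and Smcp thus shared 4 of their 5 genes, over 8 points that share arrays and scaling. This adds little to the r of 0.997 between Odf1 and Smcp over the same means. Oaz3 and Tnp1 also stand in the list of elongating spermatid markers.

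Probe sets of a gene did not always move together. In a fit of all 34945 probe sets with 1 gene symbol, 10 of the 21 probe sets of these genes fell in polysome RNA (0.833% of all), 14 in spermatocytes (5.52%), 15 in round spermatids (7.5%) and 17 in the Leydig cell fraction (13.7%). All 3 probe sets of Akap4 fell in each of these 4. In polysome RNA they gave -2.13 ± 0.26 (adjusted p = 0.0128), -2.23 ± 0.27 (adjusted p = 0.0128) and -2.09 ± 0.28 (adjusted p = 0.0178). Odf1 fell by each of its 3 probe sets in polysome RNA, with the lowest change for 1440821_x_at, which read 4813, 4088 and 2789 in WT and 189, 370.1 and 150.2 in KO (-4.01 ± 0.38, adjusted p = 0.00957). A suffix _x_at marks probes that may bind other transcripts as well, and both 1440821_x_at and the probe set standing for Akap3 carry it. In the Leydig cell fraction 1457659_x_at of Odf1 did not pass (-0.20 ± 0.06, adjusted p = 0.0881), whereas 1422585_at (-0.57 ± 0.04, adjusted p = 0.00772) and 1440821_x_at (-1.31 ± 0.04, adjusted p = 0.00379) fell.

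The probe sets of Odf2 differed in direction. Its probe set 1454735_at was the 1 of 21 that rose in KO round spermatids (13.7% of all probe sets rose), with 1860.3, 1890.1 and 2251 in WT and 3332, 3287 and 3499 in KO (0.75 ± 0.11, adjusted p = 0.00904). It also fell from WT spermatocytes (3368, 3298, 3706 and 3537) to WT round spermatids, where the log2 change was -0.80 ± 0.10 (adjusted p = 0.000391). Another 3 probe sets of the gene fell in KO round spermatids, with 1426040_a_at at -0.55 ± 0.15 (adjusted p = 0.0459), 1435216_a_at at -0.62 ± 0.12 (adjusted p = 0.0176) and 1439918_at at -1.30 ± 0.13 (adjusted p = 0.00368). The remaining one, 1444101_at, gave -0.25 ± 0.17 (adjusted p = 0.365). The KO change of 1454735_at differed between round spermatids and spermatocytes (0.57 ± 0.11, adjusted p = 0.00489). In polysome RNA 1426040_a_at (-1.41 ± 0.27, adjusted p = 0.0686) and 1435216_a_at (-1.40 ± 0.27, adjusted p = 0.0708) did not pass in this fit. Nor did 1439918_at (-0.41 ± 0.25, adjusted p = 0.617), 1444101_at (0.03 ± 0.52, adjusted p = 0.991) and 1454735_at (0.19 ± 0.32, adjusted p = 0.869). The Odf2 transcripts read by each probe set were not identified here.

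For Akap1 they differed in the polysome change. Its probe set 1449019_at, at 1233, 1046 and 1122 in WT polysome RNA and 1110.4, 733 and 968 in KO, did not pass there (-0.29 ± 0.26, adjusted p = 0.739), nor in the Leydig cell fraction (-0.06 ± 0.04, adjusted p = 0.347). It fell in spermatocytes (-0.46 ± 0.09, adjusted p = 0.0163) and round spermatids (-0.47 ± 0.10, adjusted p = 0.0281) with the brighter 1418279_a_at. The polysome change of Akap1 therefore rests on 1 probe set.

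**Figure D4:**
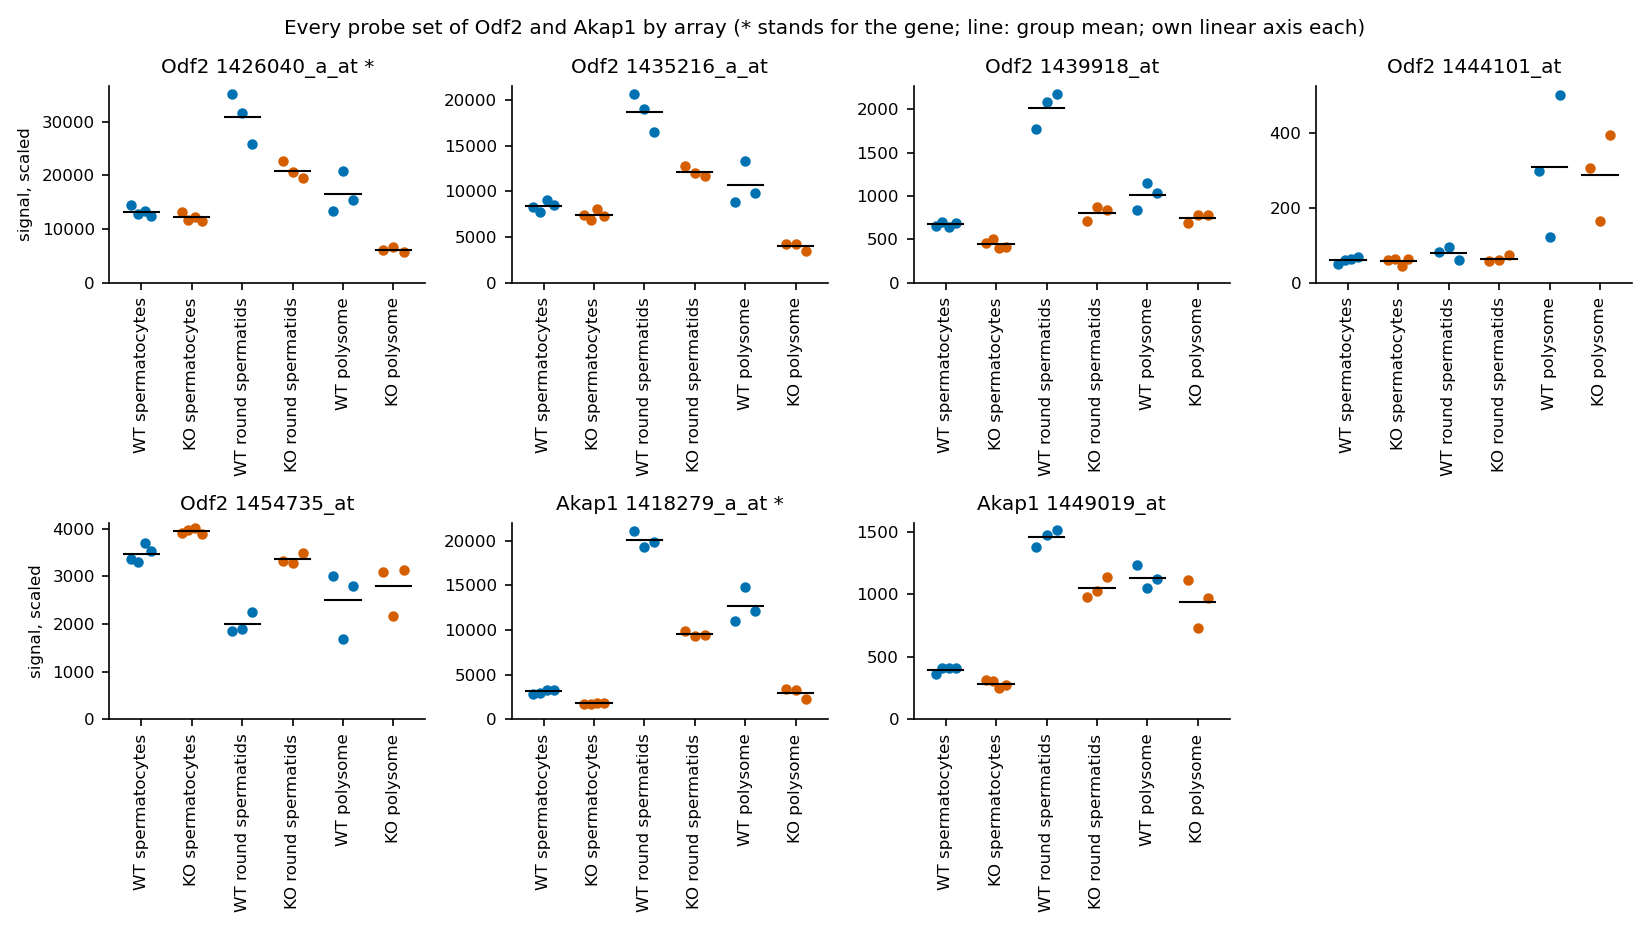
Scaled signals (linear axes from 0, 1 per panel) of the 5 probe sets of Odf2 and the 2 of Akap1 on spermatocyte, round spermatid and polysome arrays, WT in blue and KO in orange, with group means as lines. Odf2 1454735_at has KO round spermatids (3287 to 3499) above WT (1860.3 to 2251).

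Antibody recovery gave no call. In GRTH IP against IgG IP 0 of 10 genes passed (0% of all genes lower and 0% higher), 0 of 10 had an unadjusted p under 0.05 and the lowest was 0.136. Over all 9097 genes 364 had an unadjusted limma p under 0.05. The log2 changes ran from -0.99 ± 0.62 for Akap4 to 0.33 ± 0.58 for Smcp, with SEs of up to 0.67, and with 2 arrays a group these changes could not be told from the spread between arrays.

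Akap4 read 9965 and 5404 after GRTH antibody and 17383 and 12305 after IgG, while Smcp read 67027 and 62203 after GRTH antibody and 48809.7 and 54331 after IgG. The groups did not overlap for Akap4, Akap1, Odf2 and Spata18, lower after GRTH antibody, and for Smcp, higher, as for 34.1% of all genes tested, whereas those of Odf1 (12562 and 18219 after GRTH antibody, 14782 and 26418 after IgG) did. The fit over all 10 groups called 4 lower (Akap4, Akap1, Odf2 and Spata18), where it called 15.7% of all genes lower and 12.1% higher, with the spread of other groups standing in for that of the IP. Median centring turned Smcp to -0.06. The 3' to 5' actin ratio was 3.81 to 12.8 on these 4 arrays, which were labelled in 2 steps.

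Related genes of the tail gave a graded picture in KO polysome RNA, where 5.77% of all genes were lower. Of 12 tested other fibrous sheath genes 4 fell and 0 rose (median -0.71). The log2 change was -2.81 ± 0.42 (adjusted p = 0.00375) for Gapdhs, a glycolytic enzyme of the sheath, and -1.24 ± 0.22 (adjusted p = 0.00853) for Aldoart1, a sperm aldolase. It was -0.83 ± 0.20 (adjusted p = 0.0365) for Akap14, another anchor, and -0.82 ± 0.20 (adjusted p = 0.0393) for Spa17, a sheath protein that docks like the ropporins. Of 6 tested other outer dense fibre genes 4 fell and 0 rose (median -1.05). They were Spag4, which binds Odf1 (-1.24 ± 0.25, adjusted p = 0.0177), Odf3b (-1.52 ± 0.32, adjusted p = 0.0215), Odf3 (-1.26 ± 0.30, adjusted p = 0.0358) and Odf4 (-0.85 ± 0.20, adjusted p = 0.038). Of 13 tested genes listed for the mitochondrial sheath 4 fell, but the median was -0.02. These were Spata19 (-2.43 ± 0.24, adjusted p = 0.00053), Spem1 (-2.95 ± 0.29, adjusted p = 0.00053), Armc12, needed for the coiling of mitochondria (-1.90 ± 0.28, adjusted p = 0.00353), and Tbc1d21 (-1.80 ± 0.28, adjusted p = 0.00411). Gapdhs and Spem1 also stand in the list of elongating spermatid markers. A place on a list does not show that the product is part of the structure, as for Spem1 and the mitochondrial sheath.

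Of 6 protein kinase A subunits, which the anchors bind, 0 passed in polysome RNA by limma and 0 had an unadjusted p under 0.05 (median -0.03). Values ran from -0.16 ± 0.21 (adjusted p = 0.718) for Prkar2b to 0.37 ± 0.34 (adjusted p = 0.577) for Prkacb. Of 11 tested other A-kinase anchoring proteins 1 fell, Akap14, and 1 rose, Akap2 (1.05 ± 0.20, adjusted p = 0.0137), with a median of 0.19. Genes of the annulus, the septin ring between midpiece and principal piece, gave 0 of 8 called and 0 with an unadjusted p under 0.05 (median 0.06), and Septin4, a part of that ring, gave -0.38 ± 0.20 (adjusted p = 0.345). In KO round spermatids, where 22.4% of all genes were lower and 41% higher, the same lists gave 7 lower and 2 higher of 12 for the fibrous sheath, 4 and 2 of 7 for the dense fibres, and 5 and 1 of 13 for the mitochondrial sheath. They gave 3 and 6 of 10 for other A-kinase anchoring proteins (median 0.34), 3 and 3 of 8 for the annulus, and 0 and 2 of 4 for the kinase subunits.

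**Figure D5:**
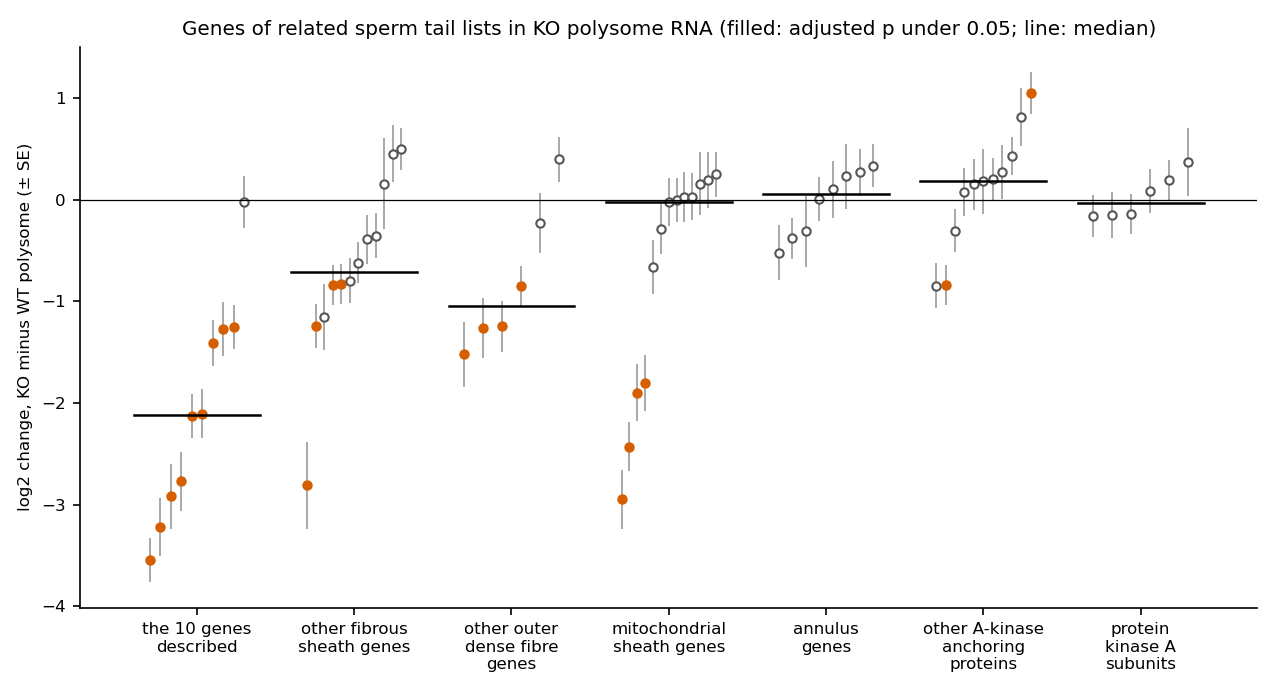
Log2 changes from WT to KO polysome RNA (points, ± SE) for the tested genes of the 10 described and of 6 related lists, with filled points for adjusted p under 0.05 and a line at each median. Medians are -2.12 for the 10 genes, -0.71 and -1.05 for the other fibrous sheath and dense fibre genes, and between -0.03 and 0.19 for the rest.

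Sequence before the start of the genes was compared, because they rose together towards the round spermatid, a stage known for transcription through the cAMP response element. RefSeq windows on GRCm38.p6 matched 9 of the 10 genes, all but Odf1, with 15 windows. The 100 bases before the start are shown, each 5' to 3' on the gene's strand, for Cabs1, Smcp and Spata18, 3 of the 4 genes with the lowest polysome change, and for Ropn1l, which did not pass there. They lie at chr5:87979351-87979450 (plus strand), chr3:92589074-92589173 (minus), chr5:73651280-73651379 (plus) and chr15:31453690-31453789 (minus). Capitals mark CCAAT in Cabs1 and, in Spata18, CGTCA, which reads TGACG on the opposite strand.
Cabs1: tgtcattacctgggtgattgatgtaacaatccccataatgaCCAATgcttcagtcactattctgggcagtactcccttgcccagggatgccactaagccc
Smcp: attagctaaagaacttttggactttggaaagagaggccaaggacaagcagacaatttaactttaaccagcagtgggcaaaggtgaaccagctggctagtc
Spata18: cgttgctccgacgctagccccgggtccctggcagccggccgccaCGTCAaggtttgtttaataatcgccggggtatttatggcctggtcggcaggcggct
Ropn1l: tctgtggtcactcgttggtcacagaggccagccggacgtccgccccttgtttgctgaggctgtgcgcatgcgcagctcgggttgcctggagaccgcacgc
The palindrome TGACGTCA of the response element was in 0 of the 15 windows over 250 bases on either strand, and in 1.55% of 32851 windows of all genes. Its core TGACG was in 3 windows of 2 genes, Odf2 and Spata18 (17.8% of all windows), 56 bases before the start in Spata18. TATAAA was in 1, of Cabs1 (12.4%), and CCAAT in 5 windows of 4 genes, Odf2, Cabs1, Akap3 and Akap4 (33.8%). A match to these letters is a description and not a binding site. The printed bases of Smcp and Ropn1l held none of the 4 motifs.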

How the data were processed

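The authors deposited linear signal intensity per probe set for 28 arrays, made with GCOS per the submitters' processing notes. The GCOS version was not given in the sources used here, nor were its parameters. Since 4 polysome arrays were on another scale, every array was rescaled to a trimmed mean of 500, with 0.02 of the values trimmed at each end. Of 45101 probe sets, 34945 had 1 gene symbol, 932 several, 9160 none and 64 were controls. Entrez identifiers matched 34741 probe sets to RefSeq, and 0 symbols changed. A gene was read from the probe set of highest mean over all arrays, and genes at or above the median of a comparison's arrays were tested. Changes of log2(signal + 16) were tested with limma 3.58.1 (R 4.3.3), fitting only the groups compared, with Benjamini-Hochberg adjustment over 9097 genes and a threshold of 0.05. Python 3.11.15, pandas 2.3.3 and matplotlib 3.10.9 were used for summaries and plots.

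The number of arrays limits the precision. The procedure was tested on simulated data. Alternatives were other scalings, offsets, filters, probe set rules, fits over all groups and a replicate block, and leaving out arrays. Same-numbered WT and KO arrays deviated together (correlations of 0.138 to 0.668 for polysomes, spermatocytes and round spermatids, and 0.0277 for the Leydig cell fraction). The pairing comes from these data, since the labels do not say that a number marks a shared animal or day. Related genes were named by smallest polysome adjusted p, up to 4 per list, and the 5 genes of highest correlation were named for Akap4, Odf1 and Smcp. Septin4 and the kinase subunits at both ends of their range were picked after their values were seen. The genes and lists were chosen with earlier results of these data known.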

Additional observations from a re-analysis of the deposited data

Results flagged for a closer look

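For 9 combinations of gene and contrast the KO change differed between preparations by limma's test of the difference. Between polysome RNA and round spermatids the log2 difference was -2.61 for Smcp, -2.32 for Odf1, -1.83 for Cabs1, -1.07 for Akap4 and -1.03 for Akap1, each lower in polysome RNA. Between round spermatids and spermatocytes, by brightest probe sets, it was -0.51 for Spata18, -0.43 for Odf2 and -0.27 for Akap1, lower in round spermatids. It was 0.36 for Odf1, whose KO change by that probe set was closer to 0 in round spermatids. No single array stood apart in the 20 groups of 4 arrays examined, 1 for each gene in WT and KO spermatocytes. Chance alone would mark about 1 group in 20.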

How the results depend on the processing

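Over all gene-level results, 1575 values under an alternative kept direction and side of the threshold, 101 lost a call, 38 gained one and 46 changed sign. Main counts were 9 of 10 genes in polysome RNA, 10 in the Leydig cell fraction, 0 in the IP, 4 for round spermatids against spermatocytes and 5 for polysome RNA against round spermatids. Keeping the deposited scale gave 0 for polysome RNA and 0 for polysome against round spermatids. A fit of all 10 groups gave 3 in the Leydig cell fraction, 4 in the IP and 0 for round spermatids against spermatocytes. For that last contrast quantile normalization gave 7, no filter 1, all probe sets 1, the mean of probe sets 2, averaging close arrays 0 and the replicate block 7. Leaving out 1 array gave 2 to 5, with 2 without WT spermatocyte array 2 or KO round spermatid array 2. For polysome against round spermatids quantile normalization gave 9, no filter 3, all probe sets 2, averaging close arrays 0 and the replicate block 9, and leaving out 1 array 3 to 5. The replicate block changed no other call than those given here and in the report.

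Most changes of sign were of small values. For Ropn1l quantile normalization gave 0.0793 in polysome RNA, -0.00498 in spermatocytes, 0.128 in round spermatids and -0.0748 for the WT stage change. Leaving out arrays of conflicting description gave 0.0306 in polysome RNA, and median centring -0.0443 in spermatocytes. Leaving out 1 array gave -0.247 to 0.197 and -0.0642 to 0.0832 in these preparations. Akap3 in round spermatids went to 0.0319 under quantile normalization. In the IP median centring and quantile normalization gave -0.369 and -0.137 for Ropn1, -0.232 and -0.332 for Ropn1l, and -0.0642 and -0.0399 for Smcp. Leaving out 1 IP array gave -0.675 to 0.0814 for Akap3, -0.804 to 0.0334 for Odf1, -0.513 to 0.556 for Ropn1, -0.0676 to 0.386 for Ropn1l and -0.824 to 0.401 for Cabs1. For round spermatids against spermatocytes quantile normalization gave 0.36 for Akap3, 0.39 for Akap4, 0.15 for Akap1, 0.12 for Ropn1l and 0.21 for Cabs1. Median centring gave 0.0350 for Akap3, and the mean of probe sets 0.0741 for Akap3 and 0.0292 for Akap4. Leaving out 1 array gave -0.151 to 0.0911 for Akap3, -0.239 to 0.0524 for Akap4 and -0.0592 to 0.134 for Ropn1. For polysome against round spermatids Ropn1l gave -0.16 under quantile normalization, -0.22 as deposited, -0.25 with the mean of probe sets and -0.0330 to 0.411 with 1 array left out. The cause of these changes was not tested. Averaging close arrays does not apply to polysome, Leydig cell or IP arrays. Where an arm was left with 1 array, its spread was assumed to be like that of the other groups.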
